A study of Homo sapiens with 24 samples.

Results

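The zinc exporters of the SLC30 family (ZnT proteins) and the zinc sensor MTF1 were followed in 4 human cancer cell lines treated with Ocoxin. The set held 7 of the 58051 genes in the count tables: SLC30A1, SLC30A4, SLC30A5, SLC30A6, SLC30A7, SLC30A9 and MTF1, chosen by symbol and matched to the Ensembl identifiers of the tables. The cell lines were SW620 from a colorectal cancer (COAD), BxPC-3 from a pancreatic cancer (PAAD), LNCaP from a prostate cancer (PRAD) and HCC-70 from a triple negative breast cancer (TNBC). Each cell line stands for its cancer as 1 established line. RNA was sequenced from 3 control and 3 Ocoxin libraries of each line, 24 in all, after 48 h. Both groups grew in RPMI medium with 10% serum, and the treatment took place in 1% serum. PRAD received Ocoxin at a dilution of 50-fold, PAAD at 500-fold, and TNBC and COAD at 700-fold, doses set in each line by its own viability. COAD and TNBC thus received the same dilution, and in the other pairs cell line and dose cannot be told apart. Control libraries carry the same dilutions in the labels, and their titles (C or O) gave the group. Only cells still attached to the plate gave RNA. Nothing in the labels says that the 3 libraries of a group came from separate cultures, so the p-values measure the spread between these libraries, which may be technical.

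Zinc leaves the cytosol through ZnT proteins and enters it through ZIP proteins (SLC39 family). SLC30A1 (ZnT1) is the exporter of the plasma membrane. SLC30A4 fills endosomes and secretory vesicles, SLC30A5 and SLC30A6 work as a pair in the early secretory pathway, where SLC30A7 has the same task, and SLC30A9 moves zinc out of mitochondria. MTF1 is a zinc finger transcription factor that binds free zinc and then activates genes with metal response elements (MREs), among them SLC30A1 and the metallothioneins, small proteins that hold zinc in the cytosol. Ocoxin is a food supplement that combines vitamins, minerals and amino acids with extracts of green tea and other plants. The paper states that its zinc content is high. The zinc inside the cells was not measured here.

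The depth differed between the count tables. The libraries of COAD, PAAD and TNBC held 25160757 to 39009959 counts, and those of PRAD held 9063968 to 9520969. PRAD was counted apart and with another setting for read pairs, so levels in PRAD stand beside the others as a description only. The highest count per exonic base of any gene was 0.782 to 0.995 in the PRAD libraries and 34.1 to 48.97 in the others. Levels and shares of abundant genes in PRAD may therefore be held down, and the cause of this limit was not tested. Markers of each tissue were present in its line, in CPM (scaled counts per 1000000 counts of the library, mean of the 3 controls). VIL1 had 556 CPM in COAD, KRT7 1345 in PAAD, KLK3 253 in PRAD and KRT5 1902 in TNBC. KRT5 (4008 CPM), KRT17 (2999 against 311) and EGFR (762 against 594) were higher in PAAD than in TNBC. KRT19 (1819 against 1653) and MUC1 (369 against 113) were higher in TNBC than in PAAD, and KRT7 had 798.5 CPM in TNBC. These markers therefore do not tell PAAD and TNBC apart. The leukocyte gene PTPRC had at most 6 counts in any library. Other markers of leukocytes, endothelium and fibroblasts had more. CD3E reached 95 counts and PECAM1 195 in PAAD, COL1A1 642 in TNBC and COL3A1 153 in PRAD. In TNBC, PGR had 0 counts, ESR1 8.14 CPM and ERBB2 295 CPM, the last above its level in the other lines. In bulk RNA, fewer expressing cells and less RNA per cell cannot be told apart.

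The promoters of SLC30A1 and of the metallothionein MT2A are shown because both genes rose together in 3 of the cell lines. Each line gives the 250 bases before the RefSeq transcription start (GRCh38.p14), and capitals mark every match to the MRE core, searched as TGCACNC or TGCGCNC on both strands, so that a match on the opposite strand reads GNGTGCA or GNGCGCA. The SLC30A1 stretch is chr1:211579162-211579411 on the minus strand, and the MT2A stretch is chr16:56608334-56608583 on the plus strand. The RefSeq start of SLC30A1 lies upstream of the gene model in the count tables.
SLC30A1: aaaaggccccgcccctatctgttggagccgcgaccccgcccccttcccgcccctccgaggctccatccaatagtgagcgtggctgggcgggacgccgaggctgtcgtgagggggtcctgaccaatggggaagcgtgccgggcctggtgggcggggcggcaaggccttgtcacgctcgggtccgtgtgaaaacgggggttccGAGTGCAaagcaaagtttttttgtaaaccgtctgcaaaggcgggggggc
MT2A: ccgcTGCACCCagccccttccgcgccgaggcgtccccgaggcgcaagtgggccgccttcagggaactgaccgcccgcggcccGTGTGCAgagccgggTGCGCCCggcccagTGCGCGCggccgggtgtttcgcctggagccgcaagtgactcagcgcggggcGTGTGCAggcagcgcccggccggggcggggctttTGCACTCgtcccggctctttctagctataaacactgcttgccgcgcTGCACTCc
In windows of 300 bases (250 before and 50 after the start), SLC30A1 held 2 matches, which began 49 bases before and 25 bases after the start and both read TGCACTC on the opposite strand. MT2A held 8 and MT1X held 4. MT1X passed as higher in COAD (log2 fold change 1.10, edgeR adjusted p = 3.21e-06). It did not pass in PAAD (0.30, adjusted p = 0.0755), TNBC (-0.07, 0.416) or PRAD (-0.01, 0.985). SLC30A4 and SLC30A6 held 1 match each, and SLC30A5, SLC30A7, SLC30A9 and MTF1 held 0. Of 35116 RefSeq windows of the same length, 29.6% held at least 1 match and 8.60% at least 2, so a match is common. A match is a description of letters and does not show that MTF1 binds there.

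The gene models of the tables (hg38) placed SLC30A1 at chr1:211571568-211578742, SLC30A7 at chr1:100896076-100981753 and MTF1 at chr1:37809567-37859620. SLC30A4 lies at chr15:45479611-45522807, SLC30A5 at chr5:69093646-69131069, SLC30A6 at chr2:32165841-32224379 and SLC30A9 at chr4:41990472-42090457. Reads on all exons of a gene were summed, untranslated parts included. Of the exonic bases of SLC30A4, 4.32% also belong to HMGN2P46 or SLC30A4-AS1, and 9.20% of those of SLC30A5 to an antisense gene. Strand was not used in counting, and these reads cannot be assigned to 1 gene. The other 5 genes share no exonic base with another gene.

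The order of the 7 genes in untreated cells was compared per length (CPM per kilobase of exon), within each line. All 7 passed the filter on low counts in all 4 lines. SLC30A9, the mitochondrial transporter, was first in COAD with 22.5 ± 0.801 CPM per kilobase (SD, n = 3), followed by SLC30A1 with 15.7 ± 0.46, SLC30A5 with 13.6 ± 0.592 and SLC30A6 with 10.6 ± 0.351. SLC30A7 (4.60 ± 0.371) and MTF1 (4.09 ± 0.351) overlapped there, and SLC30A4 was last with 0.603 ± 0.0834. In PAAD, SLC30A1 was first with 18.8 ± 1.33, before SLC30A9 with 14.2 ± 0.207 and SLC30A6 with 10.1 ± 0.843. SLC30A7 (8.54 ± 0.669) and SLC30A5 (7.89 ± 0.508) overlapped in PAAD, above MTF1 with 5.97 ± 0.249 and SLC30A4 with 1.19 ± 0.044. In TNBC, SLC30A9 (13.3 ± 0.478) and SLC30A1 (12.7 ± 0.664) overlapped at the top, above SLC30A5 with 11.3 ± 0.651 and SLC30A6 with 9.58 ± 0.215. MTF1 had 7.79 ± 0.234 and SLC30A7 6.54 ± 0.490 in TNBC, and SLC30A4 was again last with 0.454 ± 0.153. SLC30A9 or SLC30A1 therefore led in these 3 lines.

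PRAD had another order. SLC30A4 was the first of the 7 in PRAD with 39.3 ± 1.5 CPM per kilobase, which put it above 96.0% of the 17070 genes tested in that line, against 16.4% of those tested in TNBC, 29.0% in PAAD and 18.9% in COAD. SLC30A4 had 330, 314 and 307 CPM in the PRAD controls, at 0.347 to 0.375 counts per exonic base. The controls of COAD had 4.11, 5.08 and 5.41 CPM, those of PAAD 9.20, 9.90 and 9.66 CPM, and those of TNBC 2.75, 3.18 and 5.07 CPM. The lowest PRAD control was thus far above the highest control of any other line, although this was not tested, since PRAD was counted apart. SLC30A9 (27.7 ± 0.565), SLC30A6 (21.1 ± 0.702) and SLC30A5 (18 ± 0.888) followed in PRAD. SLC30A5 overlapped with SLC30A1 (14.8 ± 2.92), which overlapped with MTF1 (14.5 ± 0.525), and SLC30A7 was last with 12.2 ± 0.674.

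**Figure D1:**
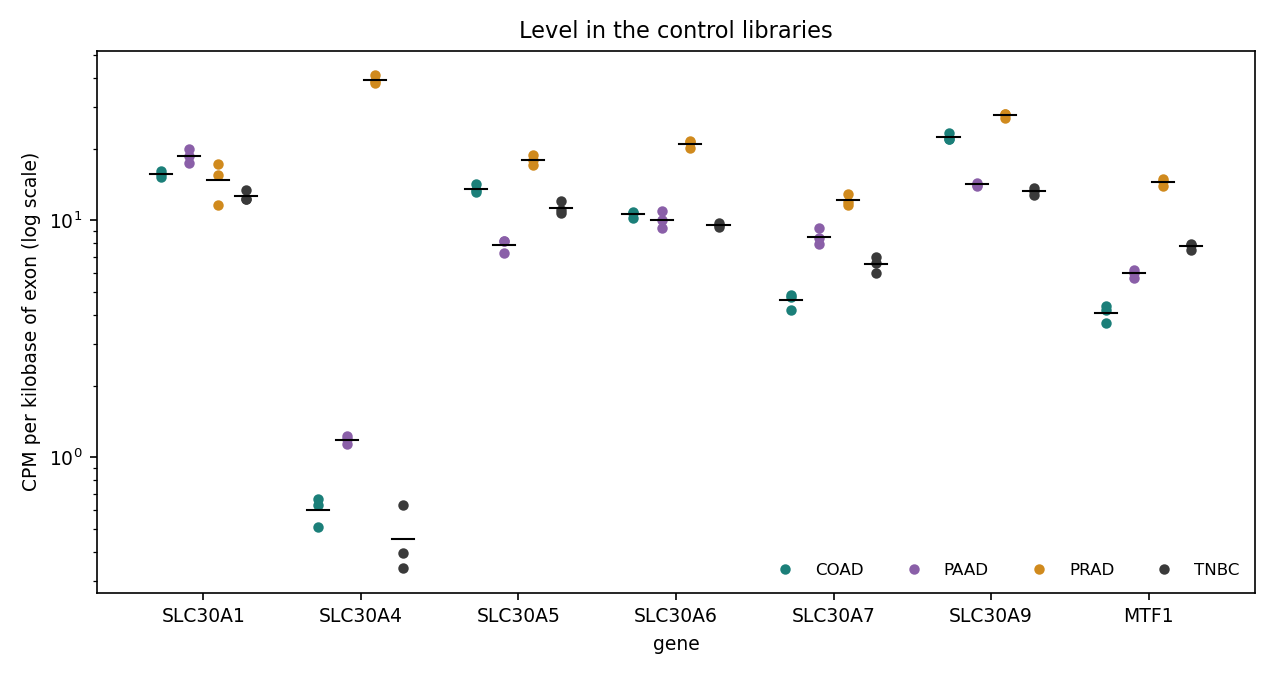
Level of the 7 genes in the 12 control libraries, in CPM per kilobase of exon on a log axis, with a point for each library, a bar for the mean and a colour for each cell line. SLC30A4 lies near 39.3 in PRAD and at 1.19 or less on average in the other lines, while the other exporters lie between 4.60 and 27.7.

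The control levels of COAD, PAAD and TNBC, which share a count table, were compared with edgeR. Of the 21 comparisons (7 genes, 3 pairs of lines), 18 passed an adjusted p under 0.05, where 78.6% of all genes passed for COAD against PAAD, 82.8% for COAD against TNBC and 77.1% for PAAD against TNBC, so the members' share was like that of the background. MTF1 was lowest in COAD and highest in TNBC: it was 1.72-fold higher in PAAD than in COAD (log2 difference 0.78 ± 0.0689 SE, adjusted p = 7.61e-10) and 1.24-fold higher in TNBC than in PAAD (0.31 ± 0.0667, adjusted p = 0.000261). SLC30A1 was highest in PAAD, 1.40-fold above COAD (adjusted p = 2.32e-07) and 1.55-fold above TNBC (adjusted p = 3.88e-09). SLC30A7 was lowest in COAD, with a level 2.18-fold higher in PAAD (adjusted p = 5.30e-12). SLC30A4 was 2.31-fold higher in PAAD than in COAD (adjusted p = 2.01e-06) and did not pass between COAD and TNBC (log2 difference 0.26 ± 0.186, adjusted p = 0.208), except without the TNBC control 3 (adjusted p = 0.00481). SLC30A6 varied least: its largest fold was 1.12 (COAD against PAAD, adjusted p = 0.0316), and this call was lost without COAD control 1 (adjusted p = 0.0532), COAD control 2 (0.149) or PAAD control 3 (0.142). Its difference between PAAD and TNBC (adjusted p = 0.0456) was lost when any of 7 of the 9 controls was left out (adjusted p = 0.0545 to 0.217), the exceptions being COAD control 3 and PAAD control 1.

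SLC30A1, the exporter of the plasma membrane, was higher after Ocoxin in every cell line, and the rise passed the test in COAD, PAAD and TNBC. In COAD the controls had 88.7, 85.9 and 83.7 CPM and the Ocoxin libraries 109, 112 and 121 CPM. In PAAD the controls had 95.4, 103 and 110 CPM and the Ocoxin libraries 124, 129 and 143 CPM. In TNBC the controls had 73.8, 67.5 and 67.6 CPM and the Ocoxin libraries 101, 98.7 and 108 CPM. The lowest Ocoxin library lay above the highest control in these 3 lines. TNBC had the highest ratio of the means, 1.47 (log2 fold change 0.56 ± 0.0514 SE, adjusted p = 2.19e-05). COAD followed with 1.33 (0.41 ± 0.0541, adjusted p = 0.000175) and PAAD with 1.28 (0.36 ± 0.0683, adjusted p = 0.00405).

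In PRAD the SLC30A1 controls had 94.4, 84.9 and 63.3 CPM and the Ocoxin libraries 129, 109 and 117 CPM. Both groups were separate there as well, and the controls were spread more widely than in the other lines. The log2 fold change was 0.55 ± 0.134 (95% interval 0.24 to 0.86, ratio of the means 1.46), and the adjusted p of 0.0746 missed the threshold in the edgeR test. Equally numbered libraries deviated together in PRAD, narrowly for number 2 (r = 0.101). Control 1 and Ocoxin 2, of unequal number, had a similar value there (r = 0.0972). With the replicate number as a block SLC30A1 passed (log2 fold change 0.56, adjusted p = 0.0193). It also passed with DESeq2 (adjusted p = 0.00262), and its adjusted p ranged from 0.00133 to 0.289 over the alternatives tried. Without the third control, which was the lowest, the log2 fold change was 0.39 (adjusted p = 0.0928). Of all tested genes, 18.3% in TNBC were without overlap and higher after Ocoxin, and so were 15.2% in PRAD, 13.6% in PAAD and 10.2% in COAD.

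MTF1 rose in PAAD and did not pass in the other lines. In PAAD the controls had 45.8, 48.3 and 49.7 CPM and the Ocoxin libraries 54.9, 55.9 and 58.7 CPM, without overlap (log2 fold change 0.24 ± 0.0640, adjusted p = 0.0310). This call was lost when control 1 (adjusted p = 0.101), control 2 (0.1002), Ocoxin 1 (0.0744), Ocoxin 2 (0.112) or Ocoxin 3 (0.0875) was left out, and the fold change then stayed between 0.21 and 0.26. In PRAD the controls had 120, 118 and 112 CPM and the Ocoxin libraries 136, 136 and 124 CPM. In TNBC the controls had 63.9, 60.4 and 63.3 CPM and the Ocoxin libraries 69.1, 66.9 and 69.8 CPM. The groups were separate in both lines, with a log2 fold change of 0.17 ± 0.0510 (adjusted p = 0.113) in PRAD and 0.13 ± 0.0462 (adjusted p = 0.0567) in TNBC. Both passed with the replicate number as a block (adjusted p = 0.0321 in PRAD and 0.0108 in TNBC). Neither passed once the dependence of each library on gene length was taken out, where the log2 fold change was 0.09 in both (adjusted p = 0.242 in PRAD and 0.186 in TNBC, and 0.114 and 0.102 with the block added). That correction also moved the median of all tested genes, from 0.0088 to -0.0686 in PRAD and from 0.0056 to -0.012 in TNBC. In COAD, MTF1 had 35.0, 33.7 and 29.6 CPM in the controls and 29.2, 29.3 and 30.4 CPM after Ocoxin, which overlapped (log2 fold change -0.15 ± 0.0733, adjusted p = 0.345).

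**Figure D2:**
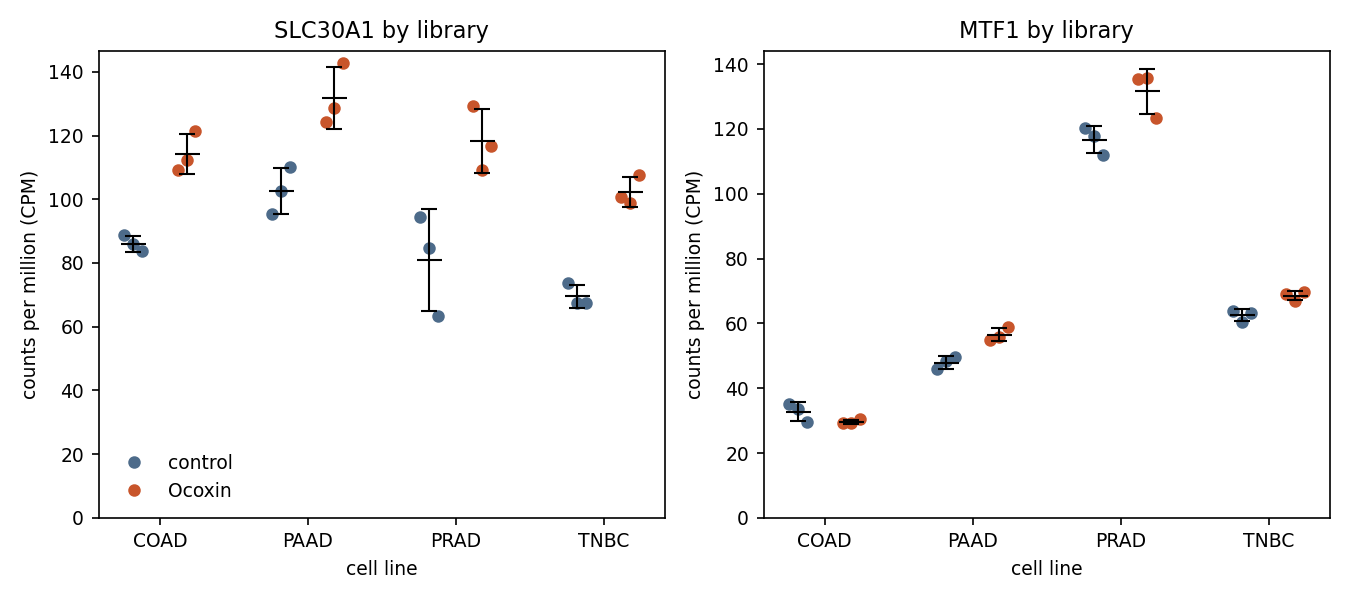
CPM of SLC30A1 (left) and MTF1 (right) in the 24 libraries by cell line, with a point for each library, a dash for the mean and bars for the SD of 3 libraries. SLC30A1 is separate between control and Ocoxin in all 4 lines, and MTF1 in PAAD, PRAD and TNBC, while the MTF1 points of COAD overlap between 29.2 and 35.0 CPM.

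SLC30A4, the vesicle exporter, did not pass in any line. In PAAD it had 11.9, 10.7 and 12.6 CPM after Ocoxin against control values of at most 9.90 CPM (log2 fold change 0.29 ± 0.101, adjusted p = 0.0873), and it passed there with the replicate number as a block (adjusted p = 0.0234). In PRAD, where it was abundant, it had 307, 303 and 308 CPM after Ocoxin, which overlapped with the controls (log2 fold change -0.05 ± 0.0361). In that line SLC30A4 became a call with the same correction for gene length (log2 fold change -0.14, adjusted p = 0.0382), while the median of all tested genes moved from 0.0088 to -0.0686. In COAD and TNBC it rested on 87 to 191 counts a library, and the 95% interval of its log2 fold change reached from -0.25 to 0.44 in COAD and from -0.77 to 0.48 in TNBC. The TNBC interval held falls of that size and rises up to 0.48, below the rise of 0.56 of SLC30A1 in that line. The COAD interval reached above the rise of 0.41 of SLC30A1 there.

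The paired secretory exporters SLC30A5 and SLC30A6 hardly moved. The log2 fold change of SLC30A5 lay between -0.05 and 0.02 in the 4 lines (adjusted p of 0.757 to 0.993), and its 95% intervals stayed between -0.17 and 0.16. That of SLC30A6 lay between -0.04 and 0.13 (adjusted p of 0.321 to 0.933), with intervals between -0.16 and 0.28. The ratio of SLC30A5 to SLC30A6 per length was 1.28 ± 0.0513 in the controls and 1.28 ± 0.0436 after Ocoxin in COAD, and 1.18 ± 0.0531 and 1.18 ± 0.0520 in TNBC. It was 0.786 ± 0.0831 and 0.717 ± 0.0377 in PAAD, and 0.855 ± 0.0255 and 0.870 ± 0.0423 in PRAD. The ratio moved within its spread in each line, and SLC30A6 was the more abundant of both in PAAD and PRAD only.

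SLC30A7, which also supplies the secretory pathway, had 101, 96.9 and 108 CPM in the PRAD controls and 112, 113 and 110 CPM after Ocoxin. In TNBC it had 58.7, 50.5 and 55.1 CPM in the controls and 60.5, 62.0 and 59.7 CPM after Ocoxin. Both lines showed no overlap, and neither passed the test (log2 fold change 0.14 ± 0.0491, adjusted p = 0.173 in PRAD, and 0.15 ± 0.0572, adjusted p = 0.0832 in TNBC). In TNBC it passed with the replicate number as a block (adjusted p = 0.00755) and without control 1 (log2 fold change 0.20, adjusted p = 0.0444). With the correction for gene length, the log2 fold change of SLC30A7 was 0.05 in PRAD (adjusted p = 0.618) and 0.10 in TNBC (adjusted p = 0.213, and 0.0783 with the block added). The median of all tested genes was -0.0686 in PRAD and -0.012 in TNBC with that correction. In COAD (-0.03 ± 0.0692) and PAAD (-0.04 ± 0.0681) the groups overlapped. For SLC30A9 the log2 fold change was positive in COAD (0.06 ± 0.0532) and negative in PRAD (-0.04 ± 0.0340), TNBC (-0.08 ± 0.0444) and PAAD (-0.11 ± 0.0553), and none passed. In PAAD its 3 Ocoxin libraries, with 94.7, 92.7 and 97.2 CPM, lay below the controls, with 101, 102 and 104 CPM (adjusted p = 0.250), where 13.9% of all tested genes showed the same.

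In counts, 2 of the 7 members passed in PAAD (SLC30A1 and MTF1), 1 of 7 in COAD and in TNBC (SLC30A1) and 0 of 7 in PRAD, and all 4 of these calls were higher after Ocoxin. Among all genes tested, the share that passed was 21% in TNBC, 8.33% in PAAD, 2.98% in PRAD and 2.55% in COAD, and 9.65%, 4.72%, 2.40% and 1.47% passed as higher. The TNBC share of the members was close to its background. In PRAD, where edgeR called 0, 3 members had an unadjusted p under 0.05 and DESeq2 called 1. Of all 17070 genes tested there, 3547 had an unadjusted p under 0.05, and DESeq2 called 3.32% of its genes. With the replicate number as a block, the count was 2 in PRAD, 3 in TNBC and 3 in PAAD, where 8.5%, 33.9% and 23.1% of all genes passed. The 7 members had a median log2 fold change of 0.01 in TNBC, 0.02 in PRAD, 0.13 in PAAD and -0.03 in COAD, and that of all genes was between -0.01 and 0.01.

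**Figure D3:**
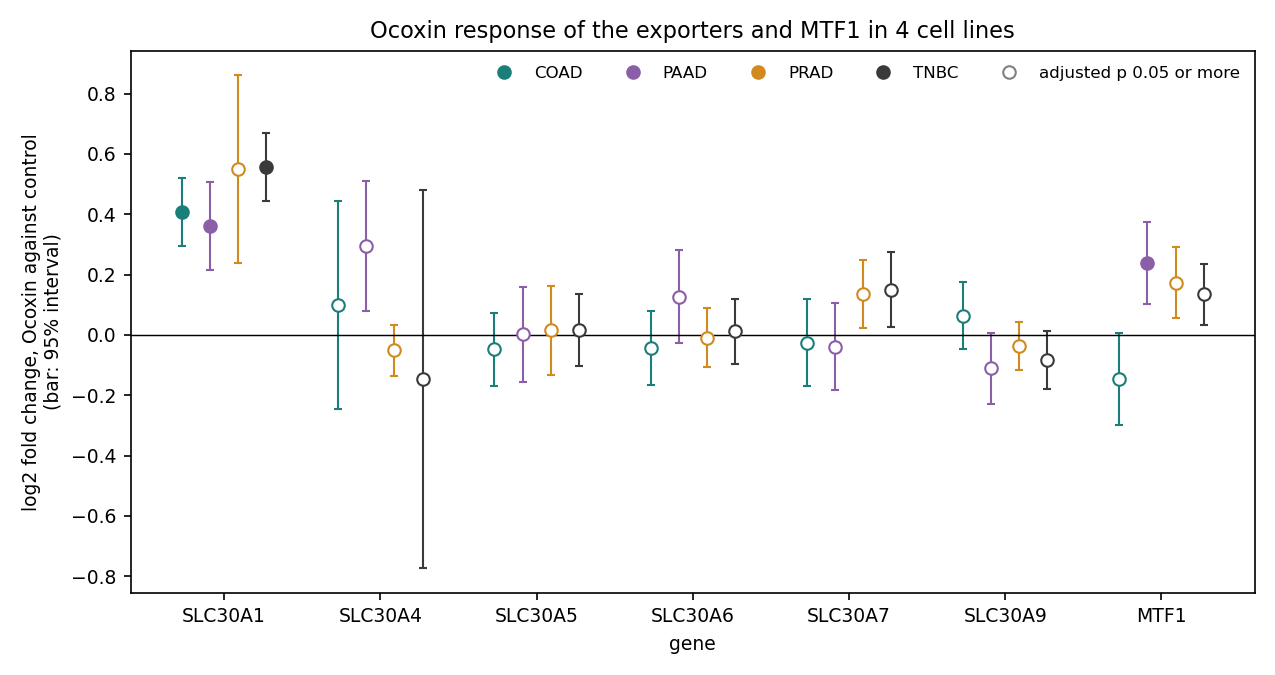
Log2 fold change of Ocoxin against control for the 7 genes, with the 95% interval from edgeR and a colour for each cell line. Filled points passed an adjusted p under 0.05 and open points did not. SLC30A1 lies between 0.36 and 0.56 in the 4 lines, and SLC30A5 between -0.05 and 0.02.

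Whether the response differed between cell lines was tested for each of the 7 genes in 6 pairs of lines, 42 differences in all, in 1 fit of the 24 libraries. Only the difference of MTF1 between COAD and PAAD passed, at -0.38 ± 0.0855 on the log2 scale (95% interval -0.55 to -0.21, adjusted p = 0.00898 over all genes of the pair and 0.00741 over all pairs). It kept its direction and passed in all 8 other settings and without each of the 24 libraries, between -0.44 and -0.33 (adjusted p = 0.00043 to 0.0462). Of all genes, 3.44% passed in this pair, 6.78% for COAD against TNBC, 4.01% for PAAD against TNBC, 3.59% for PRAD against TNBC, 3.29% for PAAD against PRAD and 0.832% for COAD against PRAD. The MTF1 response of COAD was also below that of PRAD (-0.29 ± 0.0869, adjusted p = 0.131) and TNBC (-0.27 ± 0.0845, adjusted p = 0.0518) without passing. The former passed with DESeq2 (adjusted p = 0.0396), with a replicate block in all 4 lines (0.0258) and without COAD control 3 (0.0401), and in 0 of the other 5 settings. The latter passed with a replicate block in the 3 lines where the numbers were taken to pair libraries (adjusted p = 0.0202). The difference from TNBC also passed with a block in all 4 lines (0.00734), with DESeq2 (0.0171) and without the PRAD libraries (0.0492). In the other 4 settings it passed in 0. It passed too without PAAD control 1 (0.0469), PAAD control 3 (0.0450), PAAD Ocoxin 3 (0.0486) or COAD control 3 (0.0103). The response of SLC30A4 was 0.38 ± 0.205 higher in PAAD than in PRAD (adjusted p = 0.442), and it passed with the block in the paired lines (adjusted p = 0.0492), with the block in all 4 lines (0.0197) and with both lines fitted alone (0.0298). The SLC30A9 difference of COAD minus PAAD was 0.18 without passing, and it passed with DESeq2 (adjusted p = 0.0349) and with the block in all 4 lines (0.0242), as it did for COAD minus TNBC with that block (0.0339).

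For SLC30A1, none of the 6 differences between lines passed. The largest was PAAD against TNBC, at -0.19 ± 0.121 (95% interval -0.43 to 0.06, adjusted p = 0.501). Over the 6 pairs the intervals reached from -0.43 to 0.30. Ocoxin was more concentrated in PRAD (diluted 50-fold) than in the other lines (500-fold or 700-fold). The SLC30A1 response of PRAD against COAD differed by -0.11 ± 0.129 (COAD minus PRAD, 95% interval -0.38 to 0.15).

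The make-up of the exporter transcripts was described by the share of each gene in the summed CPM per kilobase of the 6 exporters. SLC30A1 made up 23.3 ± 0.835% of the sum in the COAD controls and 28.6 ± 0.315% after Ocoxin. It went from 30.9 ± 0.754% to 36.5 ± 0.716% in PAAD, from 11.1 ± 1.97% to 15.5 ± 1.12% in PRAD and from 23.6 ± 1.14% to 31.2 ± 0.634% in TNBC. The 3 Ocoxin libraries lay above the 3 controls in each line. SLC30A9 fell back from 24.6 ± 0.236% to 20.9 ± 0.362% in TNBC and from 23.4 ± 0.865% to 19.95 ± 0.753% in PAAD. Shares of 1 sum are bound to each other, so a higher share of SLC30A1 lowers the others, and no test was run on them. SLC30A4 held 29.5 ± 0.435% of the sum in the PRAD controls and at most 1.96 ± 0.0926% in those of the other lines.

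**Figure D4:**
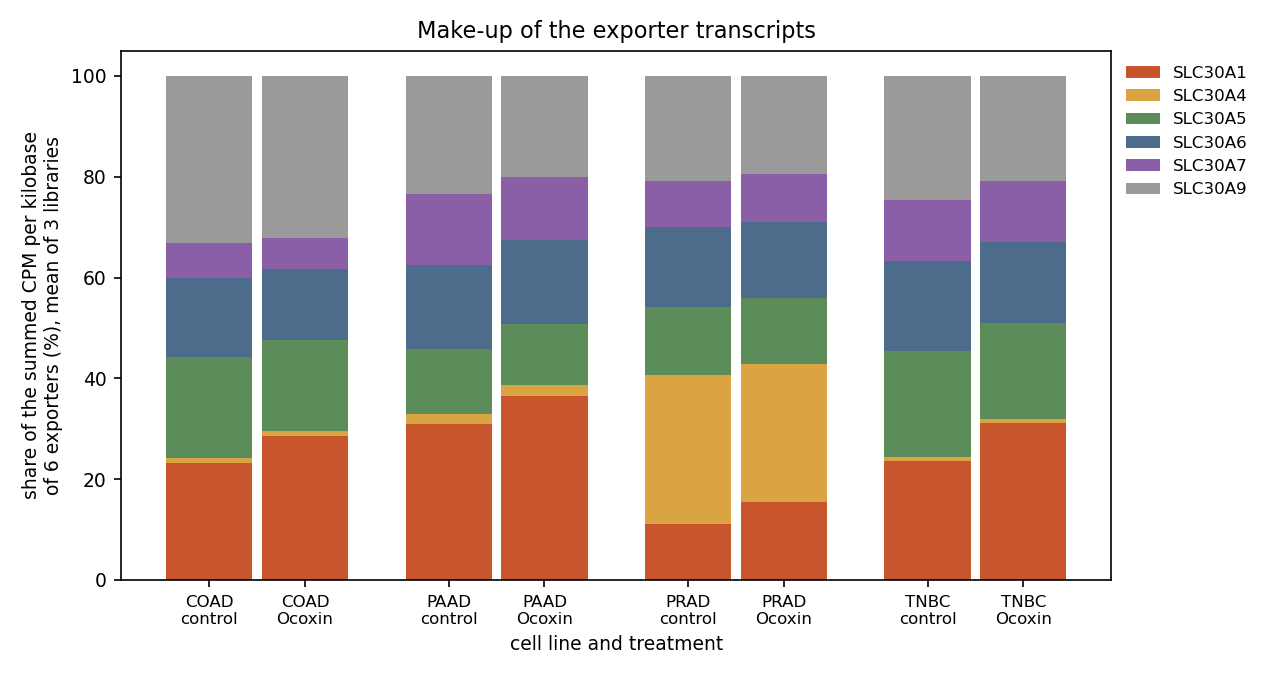
Mean share of each exporter in the summed CPM per kilobase of the 6 exporters, for control and Ocoxin in each cell line, in percent, with 3 libraries behind each bar. The SLC30A1 part grows from 23.6% to 31.2% in TNBC, and the SLC30A4 part is visible mainly in PRAD, at 29.5% of the controls.

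Other genes of zinc handling were counted in lists. The metallothioneins buffer zinc and are targets of MTF1. Of those tested, 5 of 6 rose in TNBC, 6 of 7 in PAAD, 6 of 8 in COAD and 0 of 4 in PRAD, and 0 fell. Among all genes tested, 9.65% passed as higher in TNBC, 4.72% in PAAD, 1.47% in COAD and 2.40% in PRAD. In COAD the call of MT1M was lost without any 1 of the 6 libraries (adjusted p = 0.0501 to 0.112). MT1G rose in PAAD from 0.595 ± 0.165 to 10.5 ± 2.12 CPM (log2 fold change 4.14 ± 0.213, adjusted p = 2.77e-08), the largest value of the list in that line. MT1G rose by 2.39 ± 0.2 in COAD and by 1.87 ± 0.0995 in TNBC on the log2 scale. MT2A, the most abundant of them in these 3 lines, rose from 77.1 ± 3.05 to 133 ± 3.13 CPM in COAD. In PRAD, MT1E and MT1M had 0 counts in all 6 libraries, and MT1F went from 3.31 ± 0.978 to 8.44 ± 3.55 CPM (log2 fold change 1.35 ± 0.357, adjusted p = 0.0879). Of these 4 genes in PRAD, 1 had an unadjusted p under 0.05, DESeq2 called 1 and the replicate number as a block gave 2. DESeq2 called 3.32% of all genes in that line, and the block 8.5%, while 3547 of 17070 had an unadjusted p under 0.05. MT1F is among the genes the study picked from these libraries. The paper also measured it by PCR (RT-qPCR) on RNA extracted again from treated cells, and reports it higher in every cancer. The metallothioneins are near-identical copies, so reads may be split between them.

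Among the ZIP importers, SLC39A10, which carries zinc into the cytosol at the plasma membrane, fell in all 4 lines, in PRAD with a call that needed all 6 libraries. The fall was largest in PAAD, with a log2 fold change of -1.48 ± 0.103 (adjusted p = 3.81e-07). It was -0.81 ± 0.0808 in TNBC (adjusted p = 3.77e-05), -0.81 ± 0.0579 in COAD (adjusted p = 1.69e-08) and -0.68 ± 0.122 in PRAD (adjusted p = 0.0327). The PRAD call was lost without any 1 of its 6 libraries (log2 fold change -0.77 to -0.54, adjusted p = 0.0523 to 0.121) and without the filter on low counts (0.15). With a library left out, the altered genes of PRAD numbered 3 to 398, against 508 with all libraries. The study picked SLC39A10 and SLC30A1 from these libraries, so their directions here are not independent evidence. The paper also measured both by RT-qPCR on RNA extracted again from treated cells. It reports SLC30A1 as higher and SLC39A10 as lower in every cancer. Of the other importers, SLC39A1 fell in TNBC (-0.28 ± 0.0357, adjusted p = 0.000233) and SLC39A2 rose there (0.36 ± 0.0703, adjusted p = 0.00367). In all, 3 of 12 importers passed in TNBC, 1 of 11 in PRAD, and 1 of 12 in both COAD and PAAD. The replicate block gave 5 calls in TNBC, 2 in PRAD and 4 in PAAD. Beside them, 21%, 2.98%, 2.55% and 8.33% of all genes passed in TNBC, PRAD, COAD and PAAD, and 33.9%, 8.5% and 23.1% with the block in TNBC, PRAD and PAAD, so the importers of TNBC and PAAD were near the background. The median log2 fold change of the list was between -0.07 and 0.00 in the 4 lines.

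Of the exporters outside the set, SLC30A2, known for loading zinc into vesicles of the mammary gland, rose in TNBC from 9.75 ± 0.266 to 24.8 ± 1.94 CPM (log2 fold change 1.35 ± 0.0800, adjusted p = 5.63e-07). TMEM163, a zinc efflux protein, rose in PAAD from 1.02 ± 0.115 to 2.18 ± 0.766 CPM (1.09 ± 0.274, adjusted p = 0.0221), a call that was lost without control 1 (0.0806), control 2 (0.0589), Ocoxin 1 (0.0841) or Ocoxin 3 (0.0861). Of these other exporters, 1 of 1 tested passed in PAAD, 1 of 2 in TNBC, 0 of 4 in COAD and 0 of 2 in PRAD. Among all genes, 8.33% passed in PAAD, 21% in TNBC, 2.55% in COAD and 2.98% in PRAD. The list is too short to read a share from. In COAD 2 of the other exporters had an unadjusted p under 0.05, as did 2818 of all 17659 genes tested, and DESeq2 called 0. In PRAD 0 of the other exporters had one, beside 3547 of all 17070 genes, and DESeq2 called 1 exporter. That gene was SLC30A2, which the filter had removed in PRAD, with 2, 1 and 0 counts in the controls and 30, 12 and 7 counts after Ocoxin (DESeq2 adjusted p = 0.012). It also passed with edgeR without the filter (adjusted p = 0.0157) and in 1 fit of the 24 libraries (0.00325), and a fold on so few counts is not given. SLC30A8, the exporter of insulin granules, had at most 5 counts in any library.

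Enzymes that take up zinc in the secretory pathway, such as the alkaline phosphatases, are supplied by SLC30A5, SLC30A6 and SLC30A7. Of this list, ALPP, the placental alkaline phosphatase, fell in PAAD (log2 fold change -0.65 ± 0.141, adjusted p = 0.00927), 1 of 4 tested. NT5E, the ectonucleotidase CD73, fell in TNBC from 2.61 ± 0.815 to 1.22 ± 0.326 CPM (-1.09 ± 0.264, adjusted p = 0.0117), 1 of 4 tested. In COAD 0 of 4 and in PRAD 0 of 2 passed, DESeq2 called 0 in both, and 0 and 2 had an unadjusted p under 0.05. Among all genes tested, 2818 of 17659 had one in COAD and 3547 of 17070 in PRAD. The replicate block gave 3 calls in TNBC, 1 in PRAD and 2 in PAAD, where it called 33.9%, 8.5% and 23.1% of all genes. The call in TNBC stood beside 21% of all genes and that in PAAD beside 8.33%, in a list too short to read a share from, and the NT5E call was lost without Ocoxin 2 (adjusted p = 0.0506). Of the importers that release zinc from the secretory pathway (SLC39A7, SLC39A9, SLC39A11 and SLC39A13), 0 of 4 passed in each line with edgeR or DESeq2. Those with an unadjusted p under 0.05 in edgeR numbered 2 in TNBC, 1 in PRAD, 1 in PAAD and 0 in COAD. Among all genes tested, 5824 of 17352 had one in TNBC and 3946 of 17280 in PAAD. In PRAD 3547 of 17070 did, and in COAD 2818 of 17659. The replicate number as a block gave 1 call in PAAD (SLC39A11) and 1 in TNBC (SLC39A9), beside the same 23.1% and 33.9% of all genes.

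The genes most like SLC30A1 and MTF1 were sought over the 24 libraries, by the Pearson correlation of log2(CPM + 0.5) after the mean of each cell line was taken off. Of 13339 genes, SLC7A11, the cystine importer, was most like SLC30A1 (r = 0.925), followed by IDH1 (0.882), CYLD (0.877), DNAJC10 (0.876) and JMY (0.874). KIAA1958 was most like MTF1 (r = 0.888), followed by SUCO (0.866), HIPK2 (0.863), LMTK2 (0.858) and ABCC5 (0.856). SLC30A1 and MTF1 had r = 0.581 with each other, and SLC30A1 and SLC30A9 had r = -0.29. The points share libraries, depth and the treatment itself, so these values describe likeness only.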

How the data were processed

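RNA of 24 libraries of 4 cell lines was analysed. Reads were processed by the authors with fastp (trimming), STAR (alignment to hg38), picard (removal of duplicates) and featureCounts 2.0.3, which summed primary alignments over exons. The deposited values are whole counts per gene without normalization. Groups came from the library titles. Read pairs were not declared in the count of PRAD, and in the other table both reads of a pair were mostly counted, so each fold change was computed within 1 cell line.

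Counts were filtered with filterByExpr, scaled with TMM and tested in each cell line with the two-sided robust quasi-likelihood test of edgeR 4.0.16 (R 4.3.3), Benjamini-Hochberg adjustment across the genes that passed the filter, and a threshold of 0.05. Differences between lines came from 1 fit of the 24 libraries, and control levels from a fit of COAD, PAAD and TNBC. CPM are TMM-scaled counts per 1000000. The tests were checked on simulated counts, in which 76 to 80 of 100 genes changed 1.3-fold were recovered within a line, and 34 of 100 for COAD minus PAAD. The changed genes were well counted, and all genes had the same spread. Recovery was therefore not checked for sparse genes, such as SLC30A4 in COAD and TNBC, or for a wider spread, as of SLC30A1 in PRAD.

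The replicate numbers were taken to pair libraries where every pair of equal number had a correlation over 0.1 of the deviations from the group means (genes with a mean of at least 1 CPM). This held in PAAD (0.134 to 0.381), PRAD (0.101 to 0.429) and TNBC (0.194 to 0.480), and not in COAD. In PRAD it held narrowly.

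Alternatives were DESeq2 1.42.0, DESeq2 size factors, no filter, 1 fit for all libraries, the replicate block, halved counts, removal of a length trend (spline with 5 degrees of freedom) and each library left out. A same-start correction of PRAD counts, a block without COAD and fits of the list genes without single libraries were added after the data were seen. The members and lists were chosen with earlier results of these data known. All 7 members were named, with at most 3 called genes of each list and line and the 5 genes most like SLC30A1 and MTF1, by rule. Examples of a list were taken from these. Genes named for other reasons (markers, counts of 0, and MT1F, MT1X, MT2A, SLC39A11 and SLC39A9) were chosen after their values were seen. Promoters were taken from RefSeq, where all 7 members matched.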

Additional observations from a re-analysis of the deposited data

Results flagged for a closer look

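The response of MTF1 differed between COAD and PAAD by -0.38 on the log2 scale, in a test of the difference itself over the 24 libraries. The fold change was -0.15 in COAD, where the groups overlapped, and 0.24 in PAAD, where every Ocoxin library lay above every control. The part of cell line and dilution in this difference cannot be told apart. Groups of 3 libraries were too small to look for single libraries that stand apart.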

How the results depend on the processing

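The rise of SLC30A1 in COAD, PAAD and TNBC kept its direction and passed in the 8 other settings and without each of 6 libraries per line. In PRAD it passed in 5 of 8 other settings and in 0 of the 6 fits without a single library.
The members altered in PAAD were 2, against 4 with the length trend removed and the replicate block, and 1 to 2 without single libraries. In PRAD they were 0, against 1 with DESeq2 or all 24 libraries in 1 fit, 2 with the replicate block or the length trend removed, and 3 with both. In TNBC they were 1, against 3 with the replicate block, 2 with both, and 1 to 2 without single libraries. Both together called SLC30A9 in PAAD (log2 fold change -0.14, adjusted p = 0.0129), PRAD (-0.11, adjusted p = 0.0306) and TNBC (-0.12, adjusted p = 0.0113). The median of all tested genes was then -0.0065 in PAAD, -0.0677 in PRAD and -0.0117 in TNBC. In COAD the replicate numbers were not taken to pair libraries (r = 0.239, 0.0358 and 0.349), and the block left 1 altered member while the altered genes rose from 451 to 1925. The block changed no call of a member within a line beyond those given here and in the results.
Differences of response that passed among 42 were 1, against 4 with DESeq2, 6 with the replicate block, 3 with it in the 3 paired lines, 2 with each pair of lines fitted alone, and 1 to 3 without single libraries. The differences of control level that passed among 21 were 18, and 15 to 18 over the alternatives. Without division by length, 3 members in PAAD, 2 in PRAD and 4 in TNBC kept their place in the order of control levels, and 7 in COAD.
None of the values that changed sign passed. SLC30A5 turned negative in PAAD with halved counts (-0.000265), the length trend removed (-0.0187) and the latter with the block (-0.0190). In PRAD it did so with DESeq2 (-0.000655), no filter (-0.0071), 1 fit (-0.0147), the length trend removed (-0.0512) and the latter with the block (-0.0521). In TNBC the length trend removed, without and with the block, gave -0.0112 and -0.0113 for SLC30A5 and -0.0104 and -0.0108 for SLC30A6. The SLC30A1 response in PRAD minus TNBC was 0.0363 with the same-start correction.
Without single libraries, the log2 fold change ranged from -0.0697 to 0.257 for SLC30A4 and -0.0839 to 0.0184 for SLC30A7 in COAD, and from -0.0553 to 0.0567 for SLC30A5 and -0.0893 to 0.0194 for SLC30A7 in PAAD. In PRAD it ranged from -0.0466 to 0.0584 for SLC30A5 and -0.0510 to 0.00548 for SLC30A6. In TNBC it ranged from -0.416 to 0.158 for SLC30A4, -0.0193 to 0.0614 for SLC30A5 and -0.0176 to 0.0374 for SLC30A6. The SLC30A1 difference ranged from -0.00227 to 0.117 for COAD minus PAAD, -0.234 to 0.0258 for COAD minus PRAD and -0.161 to 0.0985 for PRAD minus TNBC. The cause of these shifts was not tested.
Over all genes, the altered genes ranged from 121 to 2201 in COAD (451 in the test as reported), 641 to 3998 in PAAD (1440), 3 to 3893 in PRAD (508) and 2285 to 5878 in TNBC (3644). The share of them that were higher in PRAD was 80.5%, against 63.2% with no filter, 59.2% in 1 fit, 68.4% with the block, 26.7% with the length trend removed and 24.6% with both. In COAD it was 57.4%, against 44.9% with the block and 34.2% with both.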
